A study of Rattus norvegicus with 15 samples.

Results

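Hepatocellular carcinoma that arose in rats on a choline-deficient diet was set against control liver, gene family by gene family. The members were every feature of the array table with exactly 1 gene symbol in the platform annotation, 3440 of 3757 features, which together covered 3400 genes, in 10 of the 15 samples. Features with several symbols (4) or none (313) were tested but not named. The 5 carcinomas came from male Fischer344 rats that had eaten a choline-deficient diet defined in its L-amino acids for 70 weeks. The 5 control livers came from male rats on a basal diet for the same 70 weeks, given as Fischer344 in 4 labels and as Fischer in 1. The remaining 5 samples, noncancerous cirrhotic liver around the tumours, entered the fit for its estimate of spread. Each group is named by diet and tissue together, so the effect of the tumour and of the diet on the animal cannot be told apart in this comparison. Whether the 5 of a group were separate animals is not stated in the labels, and every interval and p-value measures the spread within groups, pooled over all 15 samples, which may be technical. Nor do the labels say whether a carcinoma and a noncancerous sample of the same number share a rat; the model treats all 15 as separate.

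Choline is needed to make phosphatidylcholine and export lipid from hepatocytes, and rats without it develop fatty liver, chronic injury, cirrhosis and, with time, hepatocellular carcinoma. Such tumours are made of transformed hepatocytes, the cells that in normal liver make plasma proteins, detoxify drugs and hormones, and run the urea cycle, gluconeogenesis and bile acid synthesis. Textbook descriptions of liver cancer include less of these functions, more glycolysis and ribosome production, and altered stroma and immune cells. In bulk RNA, fewer cells of a type and less RNA per cell cannot be told apart.

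The deposited value of a feature was its ratio to the median of that feature over all 15 samples. Values at the lower limit of the table, a ratio of 0.01, numbered 1 to 229 in the controls (229 in control 1) and 1 to 33 in the carcinomas (33 in carcinoma 1). A log2 value of 0 in the deposited ratios is therefore the middle of the 15 samples, 1 is a doubling, and levels cannot be compared between genes. The ratios were quantile-normalized and each carcinoma minus control difference is given on the log2 scale, so that a negative difference means lower in carcinoma. The values printed below are normalized, and in them 0 is the middle only approximately. The lower limit became -2.39 in control 1, -3.36 in control 2 and -3.88 in carcinoma 1. A value at the limit can therefore lie above one that is not, such as Psmb8 at -5.21 in carcinoma 4. Medians also drifted along the numbering of the features, so the main counts and medians are given a second time after a running median along the rows of the table was removed from each sample. In bins of 200 feature numbers the median difference lay near 0 up to number 3199, with the highest value of 0.15 in 1000 to 1199. It was -0.16 in 3200 to 3399, -0.23 in 3400 to 3599, -0.55 in 3600 to 3799 and -0.29 from 3800 on. Removing the running median brought the bin from 3600 to 3799 to -0.11. Features with a limma unadjusted p under 0.05 numbered 45 of 195 in that bin and 20 of 116 from 3800 on. No bin below 3600 held more than 16. With the running median removed they numbered 32 and 18, against at most 22 of 198 elsewhere (3200 to 3399). The high end of the numbering thus held more such features for its size in both forms.

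**Figure D1:**
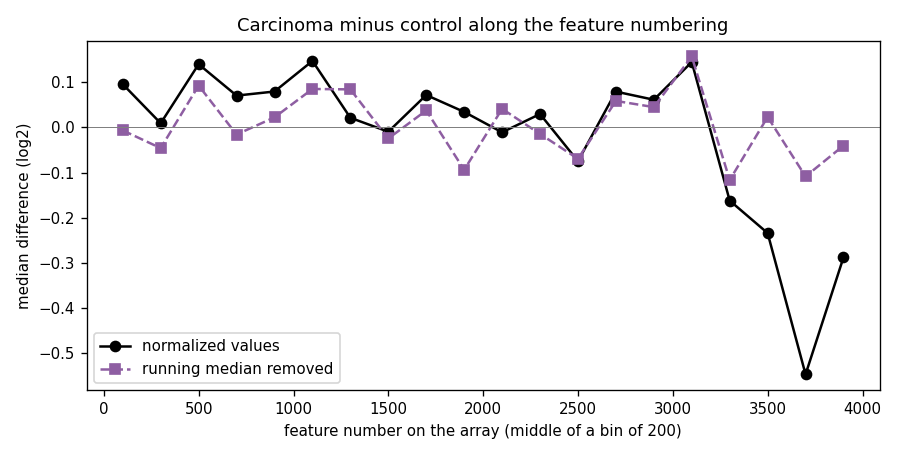
Median carcinoma minus control difference (log2, vertical axis) of the features in each bin of 200 feature numbers (horizontal axis, middle of the bin). Normalized values (filled circles) drop to -0.55 between numbers 3600 and 3799, and with the running median removed (squares, dashed line) the same bin lies at -0.11.

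Across the genome no gene passed the test. With limma, 0 of 3757 features had an adjusted p under 0.05 on the normalized values, and the smallest adjusted p was 0.459. With the running median removed there were again 0 features with a limma adjusted p under 0.05, and the smallest was 0.424. At an unadjusted p under 0.05 there were 278 features, 7.4% of those tested, with 137 higher in carcinoma (3.65%) and 141 lower (3.75%). After the running median was removed there were 319 (8.49%), with 165 higher (4.39%) and 154 lower (4.1%). The balance of higher and lower moved with the scaling: 167 of 287 such features (58.2%) were higher on the values as deposited and 180 of 292 (61.6%) once every array had one common median, against 49.3% here. It also depended on the samples in the fit: without the noncancerous samples 167 of 296 (56.4%) were higher. Both scalings raised the median difference of all features to 0.129 and 0.15, and the directions of gene families under them are read relative to that median. No other testing tool was run. All directions below are therefore descriptions of these 10 samples, and "an unadjusted p under 0.05" is called the unadjusted threshold.

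The differences were large and the samples variable. Of the 3400 genes, 1705 were higher and 1695 lower in carcinoma, 290 by more than 1 and 313 by less than -1 on the log2 scale. The middle gene had a 95% interval reaching 1.27 to either side of its difference. The middle standard deviation within a group of 5 was 0.90 in carcinoma and 0.90 in control liver. Both forms of the data ranked the genes alike, with 3150 genes (92.6%) on the same side of 0; the forms share the same samples. Of the genes, 254 had an unadjusted p under 0.05 in the normalized values, 288 after the running median was removed, and 205 in both with the same sign. Of the 120 genes given with a difference below that passed the unadjusted threshold on the normalized values, 12 did not once the running median was removed: Cps1, Got1, Gys2, Acly, Vwf, Uqcrfs1, Txnrd1, Stmn1, Dbp, Cldn7, Prom1 and Pex11a. Hes2 and Prdx2, named below only as list members, were not counted among the 120.

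**Figure D2:**
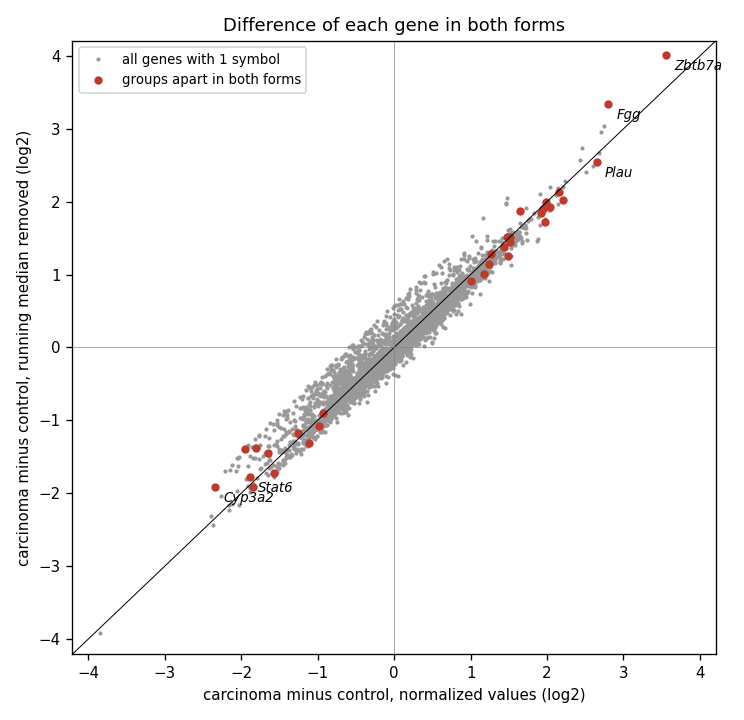
Carcinoma minus control difference of each of the 3400 genes (log2) on the normalized values (horizontal axis) and after the running median was removed (vertical axis), with the line of equality. Red points are the 31 genes whose groups stood apart in both forms, with Zbtb7a farthest above 0 and Cyp3a2 farthest below, and most points lie along the line.

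The members that stood out most were those whose 5 carcinoma values all lay above, or all below, the 5 control values. There were 71 such features (1.89%) on the normalized values, 40 higher (1.06%) and 31 lower (0.825%), and 76 (2.02%) after the running median was removed, 48 higher (1.28%) and 28 lower (0.745%). In both forms and in the same direction there were 33 features (0.878%), of which 31 were genes with 1 symbol: 20 higher and 11 lower. They were picked by that pattern, so their values are a description and support nothing further. Among them are a coagulation factor and a protease of tissue invasion, a repressor of bile acid synthesis, and a drug-metabolizing P450.

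For 4 of the 31, chosen after their values were seen because between them they show secreted liver protein, invasion, bile acid control and drug metabolism, the 250 bases upstream of the start site are printed from RefSeq (build GRCr8), 5′ to 3′ on the strand of the gene. Capitals mark every match, on either strand, of 3 core promoter motifs: the TATA box core TATAAA, the CCAAT box CCAAT and the GC box GGGCGG.
Fgg (chr2:170652833-170653082, plus strand): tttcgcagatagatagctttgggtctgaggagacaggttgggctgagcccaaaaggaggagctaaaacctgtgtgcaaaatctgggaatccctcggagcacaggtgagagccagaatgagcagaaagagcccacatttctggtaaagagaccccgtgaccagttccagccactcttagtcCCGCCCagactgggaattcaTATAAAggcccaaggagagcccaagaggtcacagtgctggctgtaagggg
Plau (chr15:3511988-3512237, minus strand): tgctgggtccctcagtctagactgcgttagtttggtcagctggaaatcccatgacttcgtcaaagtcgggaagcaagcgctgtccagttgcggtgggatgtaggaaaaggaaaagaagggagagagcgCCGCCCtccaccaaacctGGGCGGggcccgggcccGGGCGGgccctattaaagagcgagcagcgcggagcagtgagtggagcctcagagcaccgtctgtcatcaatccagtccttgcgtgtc
Nr0b2 (chr5:151062910-151063159, plus strand): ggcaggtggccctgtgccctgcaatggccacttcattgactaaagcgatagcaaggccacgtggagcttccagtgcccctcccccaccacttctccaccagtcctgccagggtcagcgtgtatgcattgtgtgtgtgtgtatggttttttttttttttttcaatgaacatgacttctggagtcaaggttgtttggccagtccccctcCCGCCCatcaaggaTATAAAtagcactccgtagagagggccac
Cyp3a2 (chr12:14343858-14344107, minus strand): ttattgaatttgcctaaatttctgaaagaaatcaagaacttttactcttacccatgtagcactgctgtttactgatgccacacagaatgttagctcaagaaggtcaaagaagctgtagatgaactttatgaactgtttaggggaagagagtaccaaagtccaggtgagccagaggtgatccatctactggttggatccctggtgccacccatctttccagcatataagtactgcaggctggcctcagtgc
The Fgg window held TATAAA 50 bases before the start site and a GC box on the opposite strand at 70 bases. In Nr0b2 they stood at 29 and 43 bases. Plau had 3 GC boxes, at 122, 104 and 87 bases, and Cyp3a2 had none of the 3 motifs. Of the 31 genes, 27 had an entry, and among these TATAAA was found in 3, CCAAT in 6 and GGGCGG in 19. Over all 33469 promoters of the table the shares were 12.9%, 34% and 30.5%, and over the 2766 array genes with an entry they were 11.6%, 35.7% and 51.7%. No matches overlapped in these windows, and a match is only a match of letters.

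Zbtb7a, a transcriptional repressor of the POK family, showed the largest of these differences, 3.56 (95% interval 1.29 to 5.83), or 11.8-fold higher in carcinoma. Its log2 ratios were 3.22, 4.41, 3.39, 1.86 and 1.75 in carcinomas 1 to 5 and -0.40, -0.018, -1.13, -0.31 and -1.32 in controls 1 to 5. Carcinoma 2 was highest and every tumour lay above 1.7, while no control lay above 0. With the running median removed the difference was 4.01.

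Fgg encodes the gamma chain of fibrinogen, the clotting protein that hepatocytes secrete. Carcinomas had 1.33, 3.79, 2.08, 1.46 and 2.76, and controls -0.026, -1.23, -0.27, 0.54 and -1.58, a difference of 2.8 (95% interval 1.29 to 4.31) and of 3.34 with the running median removed. Carcinoma 2 was again highest, and the highest control, sample 4, stayed below the lowest tumour. Fgb, the fibrinogen beta chain and the other chain measured, showed no such gap: its difference was 0.49 (95% interval -1.13 to 2.11), and it was negative, -0.14, without carcinoma 1.

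Plau, urokinase-type plasminogen activator, turns plasminogen into plasmin at the cell surface. Its values were 2.02, 2.35, 1.98, 0.61 and 1.28 in carcinoma and -0.37, -1.27, -0.94, -0.83 and -1.61 in control liver, and the difference was 2.65 (95% interval 1.34 to 3.97). All 5 controls were below 0 and all 5 tumours above it. Bsg (basigin, a cell surface protein that induces matrix metalloproteinases) was higher by 1.48, with carcinoma values of 0.55, 0.62, 1.35, 0.39 and 1.14 against -0.20, -0.12, -1.38, -0.002 and -1.64.

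Psme2, a subunit of the interferon-induced proteasome activator, was higher by 2.21 (95% interval 0.87 to 3.55). Carcinoma values were 0.79, 1.49, 0.76, 1.28 and 1.32 and control values -1.43, 0.13, -2.24, -0.002 and -1.86, so that the tumours lay close together and the controls were spread over more than 2 log2 units. Tap1, which pumps peptides into the endoplasmic reticulum for class I molecules, went the other way with the most negative difference of any named gene, -3.85 (95% interval -5.88 to -1.83). Its carcinoma values of -0.55, -5.21, -5.12, -0.56 and -2.59 overlapped the control values of 2.05, -0.018, 3.79, -1.41 and 0.81, and 2 of the 10 values stood at the lower limit of the table.

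Igfbp5, which binds insulin-like growth factors, was higher by 2.15 (95% interval 0.85 to 3.46), at 0.70, 0.98, 2.41, 0.45 and 2.26 in carcinoma and -0.026, -0.71, -1.1, -1.26 and -0.87 in controls. Carcinomas 3 and 5 were well above the other tumours. Nr0b2 (SHP), the nuclear receptor that represses bile acid synthesis, was higher by 1.64 (95% interval 0.31 to 2.98). Its tumours lay between 0.63 and 0.83 apart from carcinoma 2 at 1.65, and its controls were 0.016, -0.018, -1.09, -1.52 and -1.11.

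Gaps of the same kind were seen in genes of transport and trafficking, a heading given here after their values were seen. Slc15a2, the peptide transporter PEPT2, differed by 2.04, and Slc30a2, a zinc exporter, by 1.51 and by 0.96 without carcinoma 3. Rab4b and Rab3d, small GTPases of endosome recycling and secretory granules, differed by 1.92 and 1.27. Values of Rab4b were 1.56, 2.18, 1.32, 0.59 and 0.90 in carcinoma and -1.02, -0.39, 0.12, -0.58 and -1.2 in controls, and only carcinoma 4 was within 0.5 of the highest control.

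The other separated genes higher in carcinoma had differences from 1.01 to 1.98. They were Dpp6 (a potassium channel subunit, 1.98), Pspn (persephin, a neurotrophic ligand, 1.97), Ywhag (14-3-3 gamma, 1.94) and Txnrd2 (mitochondrial thioredoxin reductase, 1.52). Trip10 (a membrane-curving adaptor, 1.49), Axin1 (a scaffold of the beta-catenin destruction complex, 1.43), Itih3 (an inter-alpha-trypsin inhibitor chain, 1.23), Atp5f1e (the epsilon subunit of ATP synthase, 1.18) and Celsr3 (a polarity cadherin, 1.01) completed the set. The intervals of Trip10, Itih3 and Celsr3 reached just below 0.

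On the lower side, Cyp3a2, a P450 that is predominant in male rat liver, had the largest difference, -2.34 (95% interval -3.9 to -0.79), or 5.08-fold. Its values were -3.88, -0.42, -0.51, -0.48 and -1.79 in carcinoma and 1.82, -0.19, 1.37, 0.67 and 0.98 in control liver. Carcinoma 1 stood at the lower limit of the table, carcinomas 2, 3 and 4 lay close together, and the lowest control, sample 2, was only just above them. After removal of the running median the difference was -1.92.

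Stat6, which carries the signal of interleukins 4 and 13, was lower, at -1.89 (95% interval -2.98 to -0.80). Tumours had -1.92, -0.49, -0.37, -0.15 and -1.7 and controls 0.36, 0.68, 2.36, 0.74 and 0.67, with control 3 far above the other controls. Mllt3 (AF9, a chromatin reader of the super elongation complex) differed by -1.96, at -1.37, -0.89, 0.11, 0.14 and -1.84 against 0.91, 2.07, 0.78, 1.85 and 0.34. In carcinomas 3 and 4 it was above 0, yet below every control.

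Sycp3, a protein of the meiotic chromosome axis, differed by -1.85, Padi3, which converts arginine to citrulline, by -1.8, and Eef1a2, the elongation factor of muscle and neurons, by -1.65. Lrp4, of the LDL receptor family, differed by -1.57, and by -0.87 without carcinoma 1, which stood at the lower limit. Its tumour values were -3.88, -1.23, -0.056, -0.16 and 0.0087, against control values from 0.35 to 0.86. Tor1aip1 (an inner nuclear membrane protein) differed by -1.26 and Celf2 (a splicing regulator) by -1.12.

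The last pair are metabolic. Ppp1r3b, which brings protein phosphatase 1 to glycogen in liver, was lower, at -0.98 (95% interval -1.97 to 0.016), and Bcat2, the mitochondrial branched-chain aminotransferase, at -0.93 (95% interval -1.83 to -0.03). Ppp1r3b was at -1.11, -0.41, -0.34, -0.0009 and -1.03 in tumours and 0.23, 0.19, 0.12, 1.23 and 0.23 in controls, with 4 controls within 0.11 of each other. Across all 31 genes the mean of the noncancerous cirrhotic liver lay between control and carcinoma in 22, of which 13 were nearer control. It lay on the far side of control in 8, and past carcinoma in 1. Because the genes were picked for a gap between control and carcinoma, that choice itself favours a mean between them, and the count supports nothing further.

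**Figure D3:**
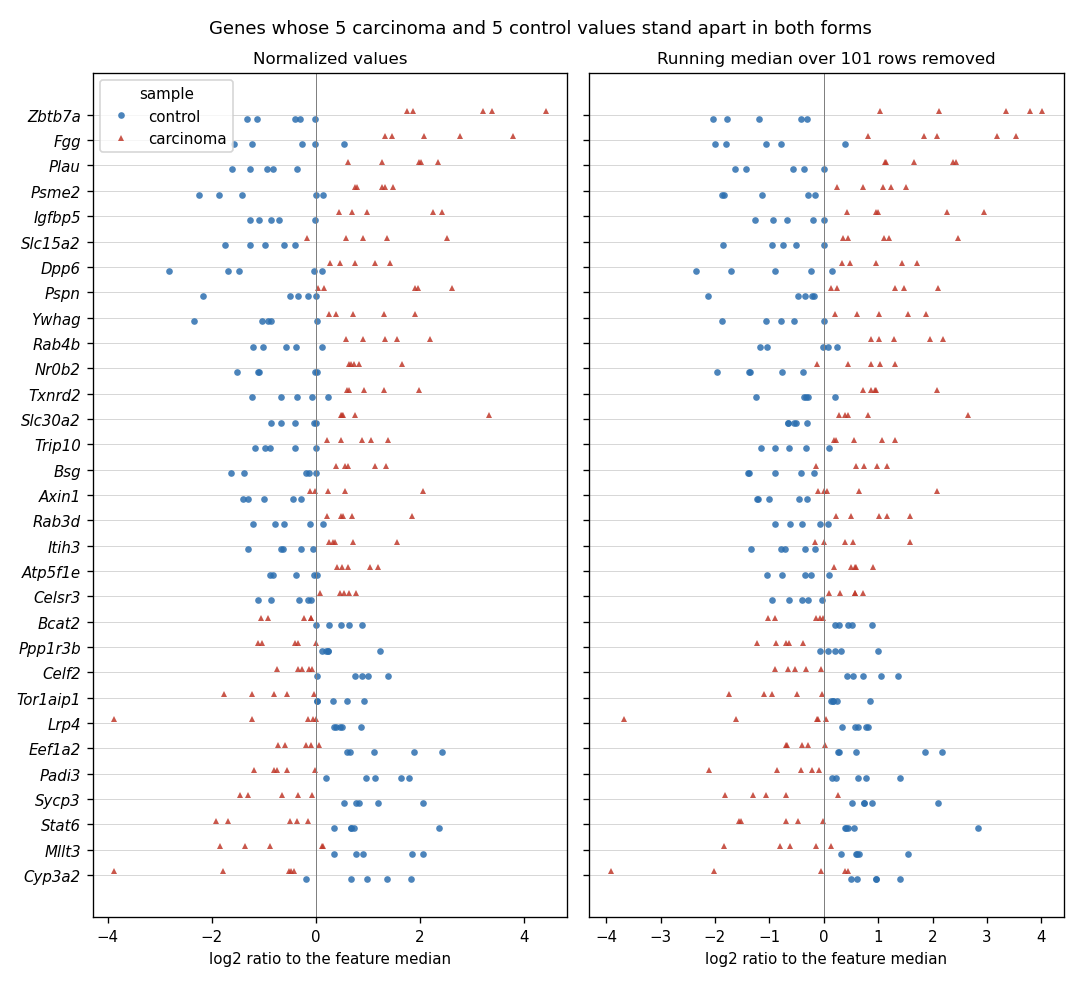
Log2 ratio to the feature median (horizontal axes) of the 31 genes whose 5 carcinoma samples (triangles) and 5 control samples (circles) stand apart, on the normalized values (left) and with the running median removed (right). Genes are ordered by difference from Zbtb7a (3.56) to Cyp3a2 (-2.34), and single points lie far from the rest, such as Slc30a2 in carcinoma 3 and Lrp4 in carcinoma 1.

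Gene families were then described with 79 lists that held 2370 of the 3400 genes, each by its median difference and by its members with an unadjusted p under 0.05, against 50.1% of genes above 0, a median of 0.0029 and 7.47% of genes under 0.05 among all 3400. The sign of the median was the same in both forms in 69 of the 79 lists. It was the same in 56 lists under the running median, the values as deposited, scaling to a common median, and values at the lower limit set to missing, each relative to the median of all features. In 0 of the 79 lists did the 5 carcinoma medians stand apart from the 5 control medians, in either form. In 10 lists no gene had an unadjusted p under 0.05. The share of genes under 0.05 lay above the 7.47% of all genes in 35 of the 79 lists.

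**Figure D4:**
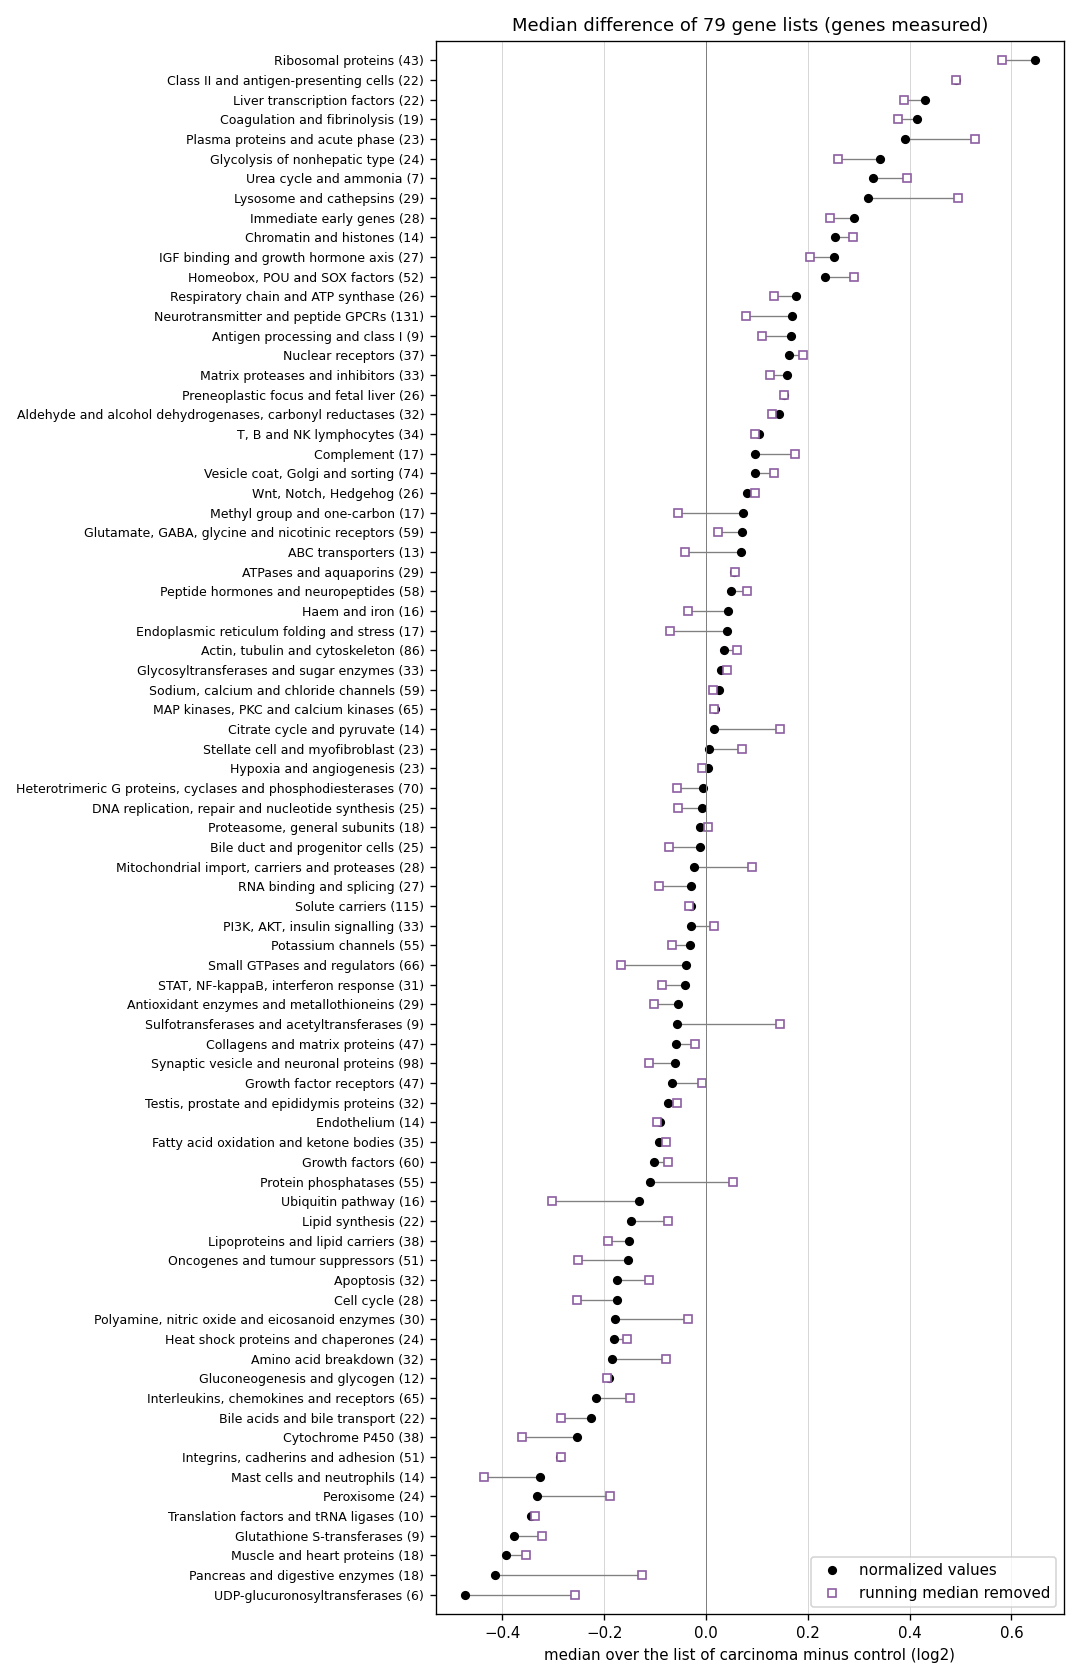
Median carcinoma minus control difference (log2, horizontal axis) of each of the 79 gene lists, with the number of genes measured in brackets, on the normalized values (filled circles) and with the running median removed (open squares). Ribosomal proteins lie highest at 0.65 and UDP-glucuronosyltransferases lowest at -0.47, and long grey lines mark lists that moved when the running median was removed.

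Secreted liver proteins were on the higher side in carcinoma. Of the 23 genes of plasma proteins and the acute phase, 16 were above 0, with a median of 0.39 (0.53 with the running median removed), and none passed the unadjusted threshold. The closest were Itih3, Itih4 (1.09), Serpina3n, a serpin of the acute phase (1.2), and Ahsg, the fetuin that binds calcium (1.52, interval -0.41 to 3.44). Sample medians ran from -0.059 to 0.81 in carcinoma and -0.87 to 0.0071 in control liver, where control 5 stood far below the other controls. With 1 sample left out the list's median ran from 0.24 to 0.60.

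Albumin itself (Alb) varied as much within the groups as between them, with 1.69, -0.99, 0.37, 0.63 and -0.062 in carcinoma and -1.44, 0.018, -0.35, 1.75 and -4.07 in controls, a difference of 1.15 (95% interval -1.2 to 3.5). Control 5 was the lowest of all 10. Transthyretin (Ttr) differed by 0.39, and by -0.022 without control 5. Apoa1, the main protein of high-density lipoprotein, differed by 0.85 (95% interval -0.68 to 2.37).

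All 12 hepatocyte markers were measured, and 9 of them were higher in carcinoma, with a median difference of 0.68 and 0.32 without control 5. Their sample medians ran from -0.23 to 1.13 in carcinoma and -1.55 to 0.32 in control liver. Because ratios hold no level, the markers show only relative amounts and cannot show presence or absence of a cell type. These markers share genes with the plasma protein list and moved with it across samples, and their part in those results was not tested.

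Coagulation and fibrinolysis (19 genes, 12 above 0) had a median of 0.41 (0.24 without control 2), with Plau and Fgg higher, and Vwf, the endothelial factor that tethers platelets, lower at -1.17 (-0.85 with the running median removed and -0.65 without control 4). F13a1, which cross-links fibrin, differed by 1.7 (95% interval -0.079 to 3.48), with 2 values at the lower limit. Complement (17 genes) stood near 0 at 0.096, although Masp2, a protease of the lectin pathway, was lower, at -1.45.

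In drug and steroid metabolism the lists of P450 genes, UDP-glucuronosyltransferases and glutathione S-transferases were on the lower side, and other lists described below were not. Of 38 genes in the P450 list, which also held the P450 reductase Por, 14 were above 0. The median was -0.25 (-0.36 with the running median removed), and 1 gene, Cyp3a2, had an unadjusted p under 0.05 in the normalized values. Once the running median was removed 3 did, all lower, among them Cyp3a9 of the same subfamily at -0.89, with an interval of -1.74 to -0.046; on the normalized values it differed by -0.86 (95% interval -1.79 to 0.059). List medians ran from -0.51 to 0.059 in carcinoma and -0.29 to 0.45 in control liver, so that the groups overlapped, and the list's median ran from -0.51 to -0.059 when single samples were left out. Without control 3 it was -0.059.

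Conjugating enzymes had 2 of 6 UDP-glucuronosyltransferases and 2 of 9 glutathione S-transferases above 0, with medians of -0.47 and -0.38. The former was -0.26 with the running median removed and -0.23 without carcinoma 5. The 9 sulfotransferases and acetyltransferases had a median of -0.056 that turned to 0.15 with the running median removed and to 0.39 relative to all features as deposited. Gsta4, which conjugates 4-hydroxynonenal from lipid peroxidation, was lower, at -1.8 (95% interval -3.25 to -0.35). Its values were -1.73, -2.5, -0.20, -0.06 and -1.45 in carcinoma and -0.10, 0.53, 1.21, -0.002 and 1.41 in controls, and carcinoma 4 was the one tumour inside the range of the controls, with carcinoma 3 just below it. Ephx1, microsomal epoxide hydrolase and a marker of preneoplastic foci, was higher by 1.52 (95% interval 0.42 to 2.63) and its groups stood apart once the running median was removed.

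Aldehyde and carbonyl enzymes (32 genes) had a median of 0.14, with 19 above 0, while the 2 members past the unadjusted threshold were lower. Aldh3a1, an aldehyde dehydrogenase known from liver tumours, was at -1.23, 0.40, -1.13, -0.49 and -0.43 in carcinoma and 1.0, 3.47, 0.24, 1.09 and 0.43 in controls, where control 2 was far above the rest. The difference was -1.82, and -1.26 with the running median removed. Akr1b1, aldose reductase, was lower, at -1.54.

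Nitrogen metabolism was mixed. Cps1, the first enzyme of the urea cycle, was higher by 1.28 (95% interval 0.20 to 2.35), at 1.04, -0.16, 1.52, 0.84 and 1.87 in tumours against -0.026, -0.35, 0.20, -0.32 and -0.78 in controls, and only carcinoma 2 fell within the control range. Otc and Ass1, its next steps, differed by -0.76 (95% interval -2.31 to 0.79) and -0.37 (95% interval -2.25 to 1.52), intervals that span 0 widely. Of 32 genes of amino acid breakdown 12 were above 0, and Sds, serine dehydratase, was lower, at -2.04 (95% interval -3.3 to -0.78).

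Sds stood at -0.39, -0.75, -0.79, -1.48 and -1.23 in carcinoma and -0.62, 1.06, 0.57, 2.76 and 1.79 in controls. All 5 tumours were below 0, and control 1 was the one control among them. Got1, cytosolic aspartate aminotransferase, was lower, at -1.12, but at -0.54 with the running median removed. Tat, tyrosine aminotransferase, differed by 0.50 (95% interval -0.91 to 1.92), and Glul, glutamine synthetase, by 0.67 (95% interval -0.51 to 1.86).

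In glucose metabolism the genes past the unadjusted threshold were lower in glucose release and glycogen storage and higher in glycolysis, without a test between those lists. They were few: 2 of 12 genes (16.7%) and 3 of 24 (12.5%), against 7.47% of all genes. Of the 12 genes of gluconeogenesis and glycogen 5 were above 0 (median -0.19, but 0.083 without control 4). G6pc1, which releases free glucose, was lower, at -2.05 (95% interval -3.68 to -0.43), with values of -1.65, -0.42, -0.86, 0.35 and -3.03 in carcinoma and 0.75, 0.97, 1.1, -0.049 and 1.86 in controls. Carcinoma 4 was the one tumour above 0 and control 4 the one control below it.

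Gys2, liver glycogen synthase, was lower, at -2.06 (95% interval -3.66 to -0.46) with groups apart on the normalized values, and was -1.17 without carcinoma 4. Its tumour values were -0.54, -1.24, 0.045, -4.78 and 0.31, against control values from 0.55 to 1.19. Removing the running median gave -1.51, the groups then overlapped, and Gys2 no longer passed the unadjusted threshold. These and Ppp1r3b were the 3 members of the list with the smallest p, all on the lower side.

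Of 24 glycolysis genes, 16 were above 0 with a median of 0.34 (0.14 to 0.66 with 1 sample left out, lowest without carcinoma 5). The list held Pfkl, Gapdh, Tpi1, Pgk1 and Pgam1 beside isoforms of other tissues, so it does not single out nonhepatic isoforms. In it 3 genes passed the unadjusted threshold, all higher. Eno1 (enolase) differed by 2.43 (95% interval 0.98 to 3.89), Slc16a3 (the lactate exporter MCT4) by 1.14 (95% interval 0.11 to 2.16) and Ldha (lactate dehydrogenase A) by 1.08 (95% interval 0.054 to 2.1). Eno1 was at 1.44, 2.98, 0.28, 0.14 and 1.39 in tumours and -1.32, -1.67, -1.62, 0.44 and -1.76 in controls, and control 4 was the one control above -1. Ldha had groups apart on the normalized values, at 1.44, 0.21, 0.38, 0.23 and 0.77 against -0.51, 0.16, -0.42, -0.78 and -0.82, with a gap of under 0.1 between carcinoma 2 and control 2.

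Lipid lists had few genes past the unadjusted threshold. Fatty acid oxidation (35 genes, median -0.092) and lipid synthesis (22 genes, -0.15) had 0 and 1 genes past the unadjusted threshold. That gene, Acly, which makes cytosolic acetyl-CoA, was lower, at -1.39 (-0.86 with the running median removed). Peroxisomal genes (24, of which 9 above 0) had a median of -0.33 that moved to -0.19, with Pex11a, which drives peroxisome division, lower, at -1.36. Of 38 genes of lipoproteins, lipid carriers, lipases and phospholipases 24 were below 0 (median -0.15) and 28 with the running median removed (-0.19). The list's median was -0.019 without carcinoma 4, and its members lower at the unadjusted threshold were Pnlip, a pancreatic lipase, and Lrp4. Against that list Apoe, the ligand for lipoprotein uptake, was higher by 1.47 (95% interval 0.0049 to 2.93), at 1.29, -0.018, 2.49, 1.29 and 2.39 in tumours against 1.2, -0.052, 1.62, -1.48 and -1.17 in controls, and controls 1 and 3 lay within the tumour range.

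Bile acid genes (22) had a median of -0.23 on the normalized values that turned to just above 0 relative to all features on the deposited values and with arrays scaled to a common median. Beside Nr0b2, Cyp7a1, the rate-limiting enzyme of bile acid synthesis that Nr0b2 represses, differed by -0.39 (95% interval -2.23 to 1.45). Its values were -0.032, -3.15, -0.38, -1.84 and 0.055 in carcinoma and -2.39, -3.36, 1.77, 1.08 and -0.49 in controls, with controls 1 and 2 at the lower limit. On the deposited values the sign of Cyp7a1 was reversed, at 1.35.

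Ribosomal protein genes had the highest median of all lists. Of 43 measured, 34 were above 0, the median was 0.65 (0.58 with the running median removed), and 4 passed the unadjusted threshold, all higher. Rps29 differed by 1.61 (95% interval 0.46 to 2.76), Rps26 by 1.37 (95% interval 0.36 to 2.38), Rpl6 by 1.15 (95% interval 0.21 to 2.08) and Rps21 by 1.11 (95% interval 0.088 to 2.13). Rpl6 had groups apart on the normalized values only, at 0.88, 0.89, 1.13, 0.24 and 0.64 in carcinoma and -0.11, 0.11, -0.03, -1.21 and -0.73 in controls. Rps26 and Rps21 had groups apart only with the running median removed.

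The ribosomal protein medians were not high in every tumour. Sample medians of the 43 genes were 1.08, -0.28, -0.013, 0.14 and 0.92 in carcinomas 1 to 5. The controls gave 0.057, -0.48, -0.03, -0.049 and -0.26. Carcinomas 1 and 5 lay far above the controls, carcinoma 4 just above them, and carcinoma 2 below 4 of the 5 controls. In the other form carcinoma 4 was the lowest tumour, at -0.25, and 3 of the 5 tumours lay among the controls. Without single samples the list's median ran from 0.34 to 0.76.

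Translation factors and tRNA ligases (10 genes) had a median of -0.34 with members on both sides, but of -0.023 relative to all features as deposited and -0.051 without carcinoma 1. Subunits of the same guanine nucleotide exchange factor differed in sign: Eif2b4 by 1.9 (95% interval 0.19 to 3.61) and Eif2b5 by -1.57 (95% interval -3.12 to -0.032). The groups of both genes overlapped.

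Mitochondrial genes lay near 0, with a few single members higher. The respiratory chain and ATP synthase (26 genes, 17 above 0) had a median of 0.18, or -0.053 without carcinoma 1. Next to Atp5f1e, Cox17, the copper chaperone of cytochrome oxidase, was higher by 1.26, and Uqcrfs1, the Rieske iron-sulfur subunit, was lower, at -1.42, and at -0.67 without carcinoma 5, which was at -3.82. Mdh1, cytosolic malate dehydrogenase, was higher by 1.39 (95% interval 0.47 to 2.3) with groups apart on the normalized values, and Timm13, a chaperone of the intermembrane space, by 1.76.

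Stress and redox genes split by member. Txnrd1 and Txnrd2, the thioredoxin reductases, were higher by 1.0 and 1.52, whereas the glutathione peroxidases Gpx4 and Gpx3 were lower, at -1.52 and -1.33. Gpx4, which reduces lipid peroxides in membranes, was at -0.94, -2.6, -0.33, -2.28 and 0.13 in tumours and 0.40, -0.80, 1.08, -0.002 and 0.87 in controls. Controls 2 and 4 lay among the tumours, and carcinomas 3 and 5 among the controls. With the running median removed Txnrd1 was at 0.60, its groups overlapped, and it no longer passed the unadjusted threshold. The list of 29 had a median of -0.054, and with Prdx2, a peroxiredoxin, 2 of its genes were higher and 3 lower at the unadjusted threshold, and 1 and 3 with the running median removed.

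Haem and iron genes (16, of which 9 above 0) also split, with 1 higher and 2 lower at the unadjusted threshold, but 3 higher and 2 lower with the running median removed. Genes with groups apart turned over from 0 higher and 2 lower to 2 higher and 0 lower. Alas1, the rate-limiting enzyme of haem synthesis in liver, was lower, at -2.22 (95% interval -3.45 to -0.98), with values of -0.76, -0.018, -3.45, -0.43 and -2.28 in carcinoma and 0.31, 1.18, 0.49, 1.23 and 0.94 in controls, with groups apart on the normalized values. Fth1, the ferritin heavy chain that stores iron, was higher by 1.29 (95% interval 0.088 to 2.49), and Blvra, which turns biliverdin to bilirubin, was lower, at -1.32 (95% interval -2.56 to -0.073). In Blvra 4 tumours lay between -1.83 and -1.51 and carcinoma 5 at 0.51.

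Heat shock genes (24, of which 10 above 0) had a median of -0.18, or 0.033 without control 5. Hspa1b, the inducible HSP70, was lower, at -1.65 (95% interval -3.09 to -0.21) and -1.03 without carcinoma 1, which was at the lower limit, and Hsp90ab1 at -1.22 (95% interval -2.46 to 0.026) with 4 tumours below -1.1 and carcinoma 5 at 0.96. P4hb, protein disulfide isomerase of the endoplasmic reticulum, was higher by 1.21. Immediate early genes (28, of which 17 above 0) had a median of 0.29, and it was 0.053 without control 4.

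Lysosomal genes were higher in the main. Of 29, 22 were above 0 with a median of 0.32, and 19 with a median of 0.49 once the running median was removed. Acp2, lysosomal acid phosphatase, was higher by 2.24 (95% interval 0.82 to 3.67) with 2 values at the lower limit, Atp6v1f, of the proton pump, by 1.66, and Ctsd, cathepsin D, by 1.06 (95% interval -0.074 to 2.2). Sample medians ran from -0.16 to 0.32 in carcinoma and -0.33 to -0.002 in control liver, and the list's median ran from 0.15 to 0.48 without single samples.

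Cell cycle genes were not on the higher side in carcinoma. Of 28 cell cycle genes 11 were above 0 with a median of -0.18, which turned to just above 0 without carcinoma 3 (0.027) and relative to all features on the deposited values and with arrays scaled to a common median. The 2 members past the unadjusted threshold (7.14%, near the 7.47% of all genes) were lower. They were Plk1, a mitotic kinase, at -1.11 (95% interval -2.16 to -0.068), and Stmn1, which takes microtubules apart, at -1.1 (95% interval -2.18 to -0.022). Pcna, the clamp of DNA polymerase, differed by -0.53 (95% interval -1.77 to 0.71). Paics, an enzyme of purine synthesis, was higher by 1.23 (95% interval 0.22 to 2.23).

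Stmn1 had controls of 1.03, 1.21, 0.76, 0.92 and 0.92 above tumours of -0.77, -0.51, 0.24, 0.52 and -0.14, but its difference was -0.56 with the running median removed and the groups then overlapped. Pdcd4, a translation repressor and tumour suppressor, was higher by 1.43. Growth factors (60 genes) and their receptors (47) had medians of -0.10 and -0.066, with Bmp6, which signals iron load to hepcidin, lower, at -1.28.

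Among the 51 oncogenes and tumour suppressors 21 were above 0. Besides Zbtb7a, Smad3, a transducer of TGF-beta, was higher by 1.34 (95% interval 0.13 to 2.55), and the tumour suppressors Nf1, which turns off Ras, and Apc, which restrains beta-catenin, were lower, at -1.88 (95% interval -3.35 to -0.41) and -1.43 (95% interval -2.76 to -0.11). Nf1 had groups apart on the normalized values at -2.41, -1.75, -0.35, -1.67 and -0.83 against -0.026, -0.17, 0.96, 0.55 and 1.07. The list median was -0.15, or 0.096 without control 3, and sample medians ran from -0.72 to 0.39 in carcinoma and -0.61 to 0.59 in control liver.

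Wnt, Notch and Hedgehog genes (26, of which 16 above 0) had 3 members higher and 1 lower at the unadjusted threshold. They were Dll3, a Notch ligand, at 1.32 (95% interval 0.32 to 2.33), Axin1, Hes2 and, lower, Apc. Both Axin1 and Apc belong to the complex that marks beta-catenin for destruction, and they differed in opposite directions.

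Signalling families lay near 0, with single members far from it. Among 65 MAP kinase, PKC and calcium kinase genes, Pak1, a kinase downstream of Rac, was higher by 2.12 (95% interval 0.75 to 3.48) and Prkaca, the catalytic subunit of protein kinase A, by 1.27 (95% interval 0.29 to 2.26), while Akap6, a kinase anchor, was lower, at -1.88. Prkaca gave 0.62, 0.095, 1.43, 1.0 and 1.85 in tumours and -0.38, -0.48, -0.20, -0.002 and -0.30 in controls, with groups apart on the normalized values. Inppl1 (SHIP2), a lipid phosphatase that dampens insulin signals, was higher by 1.88 (95% interval 0.75 to 3.0).

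A pair of brakes on small and heterotrimeric G proteins were lower: Rgs14 at -2.4 (95% interval -3.98 to -0.81) and Rasa1, a Ras GTPase activator, at -2.16 (95% interval -3.73 to -0.59). Adcy5, an adenylyl cyclase, was higher by 2.67 (95% interval 0.85 to 4.5), Plcg1, a phospholipase, by 1.53 (95% interval 0.43 to 2.62), and Gng11, a G protein gamma subunit, was lower, at -1.64. In Adcy5, control 4 at 1.19 lay above carcinomas 4 and 5.

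Transcription factors leaned higher. Of 22 liver transcription factors 15 were above 0, with a median of 0.43, yet Hnf4a and Cebpa, which keep hepatocyte identity, differed by 0.49 (95% interval -0.52 to 1.5) and 0.59 (95% interval -1.09 to 2.27), intervals that span 0. Hhex was lower, at -1.42 (-0.94 without carcinoma 1), and Dbp, a clock output factor, at -1.45 (-0.93 with the running median removed). The list median was 0.11 without carcinoma 5.

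Among 37 nuclear receptors, 21 were above 0, with a median of 0.16 (0.0024 without control 3). The unadjusted threshold was passed by 4 (10.8%, against 7.47% of all genes), all higher. They were Nr5a1 and Nr0b1, best known from steroid-making glands, Nr0b2, and Nr1d2, a clock repressor. The differences of Nr5a1, Nr0b1 and Nr1d2 were 1.54 (95% interval 0.39 to 2.68), 1.53 (95% interval 0.32 to 2.73) and 2.04 (95% interval 0.26 to 3.81). The groups of Nr5a1, Nr0b1 and Nr1d2 overlapped, and in Nr1d2 control 4 was at 2.80. Homeobox, POU and SOX factors (52, of which 31 above 0) had a median of 0.23, or 0.079 without control 5.

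Cytokine genes leaned lower. Of 65 interleukins, chemokines and receptors 26 were above 0 with a median of -0.22 (-0.15 with the running median removed). At the unadjusted threshold 7 were lower and 3 higher (15.4%, against 7.47% of all genes). Il1rn, the interleukin 1 receptor antagonist, was lower, at -2.26 (95% interval -3.77 to -0.75), Pf4, a platelet chemokine, at -1.82 (95% interval -3.2 to -0.44), and Il24 at -1.58 (95% interval -2.73 to -0.42). Ccl2, which recruits monocytes, was higher by 1.65 (95% interval 0.46 to 2.84).

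Il1rn was at -2.25, -0.32, -2.07, -0.36 and -1.4 in tumours and 0.041, 1.29, -0.074, 2.46 and 1.19 in controls, and its groups stood apart on the normalized values. Ifng, interferon gamma, was lower, at -1.27 (95% interval -2.36 to -0.19). Sample medians of the 65 genes ran from -0.29 to -0.018 in carcinoma and -0.12 to 0.11 in control liver, with carcinomas 2 and 4 inside the control range. With the running median removed carcinoma 4, at 0.27, lay above every control. The list's median ran from -0.29 to -0.12 with 1 sample left out.

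Genes of class II presentation and antigen-presenting cells (22, of which 14 above 0) had a median of 0.49 in both forms (0.28 without control 5). Cyba, the p22 subunit of the phagocyte oxidase, was higher by 1.67 (95% interval 0.51 to 2.83), Cd86, a costimulator, by 1.56 (95% interval 0.16 to 2.96), and Tlr4, the receptor for lipopolysaccharide, was lower, at -1.49 (95% interval -2.81 to -0.16) and -0.94 without carcinoma 1. Sample medians ran from 0.10 to 0.51 in carcinoma and -0.72 to 0.30 in control liver, where control 5 was lowest.

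The 5 macrophage and Kupffer cell markers measured were all higher, with a median of 0.66 and sample medians from 0.033 to 0.88 in carcinoma and -0.59 to 0.22 in control liver, and their part in the class II result was not tested. They were 5 of the 10 listed. Without control 5 the marker median was 0.43, and with the running median removed 4 of the 5 were higher (median 0.57). Of 6 T and NK cell markers 5 were higher (median 0.37, -0.10 without carcinoma 1), and 4 with the running median removed (median 0.33). Of 6 mast cell markers 2 were higher (median -0.50), and 1 with the running median removed (median -0.57).

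Lymphocyte genes (34) had a median of 0.10, with Il2rb, a chain of the interleukin 2 receptor, and Cd48 lower, at -1.0 (95% interval -1.96 to -0.051) and -1.14 (95% interval -2.27 to -0.015). Mast cell and neutrophil genes (14, of which 5 above 0) had a median of -0.33. Mmp9, a gelatinase of neutrophils, was lower, at -1.74 (95% interval -3.27 to -0.21), whereas Tpsb2, a mast cell tryptase, was higher by 1.97 (95% interval 0.29 to 3.64).

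Most stroma lists were near 0. Collagens and matrix proteins (47) had a median of -0.059 and the 8 markers of stellate cells and myofibroblasts, which make scar collagen, 0.29, with sample medians from -0.033 to 0.46 in carcinoma and -0.082 to 0.26 in control liver. Vcan, the proteoglycan versican, was lower, at -1.08 (95% interval -2.13 to -0.027). Spp1, osteopontin, differed by -0.74 (95% interval -1.96 to 0.47).

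Adhesion genes (51, of which 18 above 0) had a median of -0.29, which shrank to -0.027 relative to all features on the deposited values and to -0.043 without carcinoma 3. Jup, plakoglobin of desmosomes, went against the list at 1.69 (95% interval 0.61 to 2.78), with 1.34, 1.84, 1.66, 0.50 and 0.47 in tumours and -0.41, -0.20, -0.38, -1.11 and -0.57 in controls and groups apart on the normalized values. Cldn7, a tight junction protein, was lower, at -1.4 (95% interval -2.47 to -0.33) and Gjd2, a connexin, at -1.41 (95% interval -2.54 to -0.29).

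Bile duct and progenitor genes (25) had a median of -0.013, with 3 lower at the unadjusted threshold: Cldn7, Prom1 (-1.4, interval -2.66 to -0.14) and Tff1 (-1.51, interval -2.99 to -0.032). Once the running median was removed 1 was, and Cldn7 and Prom1 stood at -0.93 and -0.97, no longer past it. Tff1 was at -0.71 without carcinoma 1, which was at the lower limit. Krt8, a keratin of hepatocytes and ducts, differed by 0.64 (95% interval -1.03 to 2.3). Only 2 bile duct markers and 2 endothelial markers were measured, all lower in carcinoma, with medians of -0.79 and -0.80.

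Cytoskeletal genes (86) had a median of 0.035. Actb, beta-actin, often used as a reference gene, was higher by 1.82 (95% interval 0.76 to 2.89), at 0.81, 1.59, 2.22, 1.32 and 0.54 in carcinoma and -1.64, 0.67, -1.0, -0.002 and -0.67 in controls, with control 2 the one control inside the tumour range. Add2, an adducin of the membrane skeleton, was higher by 1.71 and Ina, a neuronal intermediate filament, lower, at -1.53.

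Genes whose main tissue is not liver also had members past the unadjusted threshold, which 7.47% of all genes passed. Of 131 receptors for neurotransmitters and peptides 74 were above 0, with 5 higher and 1 lower at the unadjusted threshold (4.58%). Of 55 potassium channel genes 25 were above 0, with 4 higher and 1 lower (9.09%). The former share was below that of all genes and the latter near it. The potassium channel genes Kcnh2 (2.46), Kcna6 (1.46) and Kcnab1 (2.14) were higher, and Kcnj8 was lower at -2.37 (95% interval -4.29 to -0.45). Pam, which amidates peptide hormones, was higher by 2.7 (95% interval 1.06 to 4.35), with tumours of 1.92, 2.14, 2.7, 1.63 and 2.35 above every control except control 4, the controls being -0.92, -0.96, -1.59, 2.35 and -1.66. The gut hormone gene Pyy differed by 1.72.

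Muscle and heart proteins were the most one-sided of these, with 3 of 18 above 0 and a median of -0.39, but with no gene under an unadjusted p of 0.05, and the closest, Tnni1 of slow muscle, at -1.23 (95% interval -2.55 to 0.092). Tnni1 was at -0.61 without control 4 and at -0.69 with the running median removed. Relative to all features the list's median was -0.071 on the deposited values, and it was -0.13 without carcinoma 2. Pancreatic and digestive enzymes (18, of which 7 above 0) moved from -0.42 to -0.12 when the running median was removed, with Pnlip, pancreatic lipase, lower, at -1.26 (95% interval -2.5 to -0.025) and -0.83 without carcinoma 5.

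Of 115 solute carriers 56 were above 0, with a median of -0.029. At the unadjusted threshold 5 were higher and 0 lower (4.35%), a share below the 7.47% of all genes. Once the running median was removed 6 were higher and 3 lower (7.83%), against 8.47% of all genes. Slc22a25, an organic anion transporter, was higher by 1.33 (95% interval 0.32 to 2.33). Sugar-transferring enzymes (33) had 2 on each side at the unadjusted threshold, of which Mgat5, which branches N-glycans, was lower, at -1.85 (95% interval -3.21 to -0.49), Fut4 lower, at -1.37 and Fut2, both fucosyltransferases, higher by 2.04.

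On the normalized values several further lists lay near the background or rested on genes already described. Growth hormone axis and IGF binding genes (27, of which 17 above 0) had a median of 0.25 and matrix proteases and inhibitors (33, of which 21 above 0) 0.16, the latter with Plau and Bsg higher and Mmp9 lower at the unadjusted threshold. Genes of preneoplastic foci and fetal liver (26, of which 17 above 0) had a median of 0.15, with Ephx1 and Txnrd1 higher and Aldh3a1 and Akr1b1 lower at the unadjusted threshold, and with 1 higher and 3 lower once the running median was removed. Chromatin and histone genes (14) had a median of 0.25, or -0.034 without control 4. The members past the unadjusted threshold were on the lower side, 1 (Mllt3) on the normalized values and 3 with the running median removed. The median of general proteasome subunits (18) was -0.011, with no gene past the unadjusted threshold. Apoptosis genes (32, of which 15 above 0) had a median of -0.17 and synaptic and neuronal genes (98, of which 45 above 0) -0.061. Of the synaptic and neuronal genes 3 were higher and 5 lower at the unadjusted threshold (8.16%). Once the running median was removed 6 of them were higher and 8 lower (14.3%), against 8.47% of all genes.

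**Figure D5:**
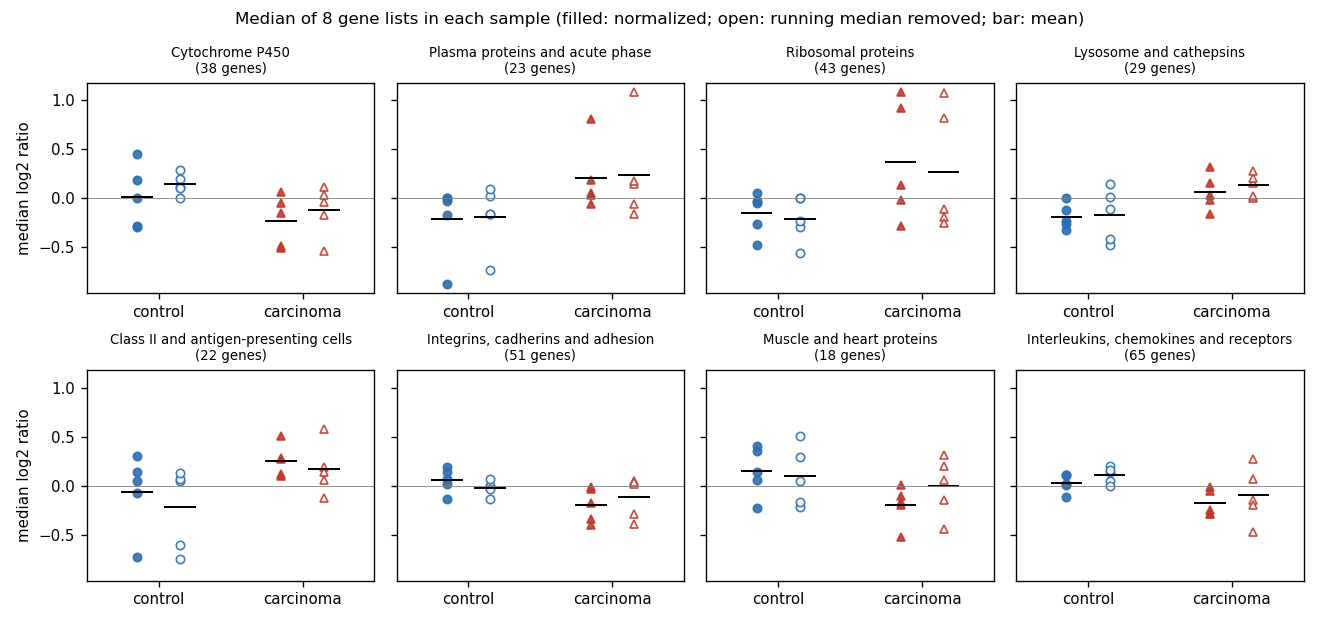
Median log2 ratio (vertical axis) of 8 gene lists in each of the 5 control samples (circles) and 5 carcinoma samples (triangles), on normalized values (filled) and with the running median removed (open), with the mean of the 5 as a bar. In every panel the groups overlap, as with the ribosomal proteins, where 2 tumours lie near 1 and carcinomas 2 and 3 lie among the controls in both forms, with carcinoma 4 also among them in the open symbols.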

How the data were processed

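RNA of 15 rat liver samples was measured on arrays. The platform's dyes and scanner, and the authors' software, are not stated in the labels. What the authors deposited is a linear ratio, since in their table each feature had a median of 1 over the 15 samples, and 657 values in 555 features stood at a lower limit of 0.01. They hold no level and no background call, and the number of arrays limits the precision. Groups came from the sample titles, and 0 columns were left aside.

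Quantile normalization over all 15 arrays was followed by log2 and a group-only linear model with 12 residual degrees of freedom (limma 3.58.1, R 4.3.3, lmFit, eBayes with trend). Two-sided P-values were Benjamini-Hochberg adjusted over 3757 features. For the second form a running median, centred on each row with 50 rows to either side, was subtracted from every array. The fit was tested on simulated data. Where 38 genes had several features, the feature with the lowest within-group spread stood for the gene. Of the 3400 genes 3389 matched a RefSeq gene identifier, with 0 differing symbols.

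Members and lists were chosen with earlier results of these data known, and 39 symbols were taken out of 14 lists because a name pattern had caught them wrongly. Named genes were those whose groups stood apart in both forms (up to 20 a direction), up to 4 genes a list in order of p, and a fixed panel of liver genes. Same-numbered carcinoma and control samples come from different diets, and their deviations correlated from -0.34 to 0.22, so numbers were not treated as pairs.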

Additional observations from a re-analysis of the deposited data

Results flagged for a closer look

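Single samples stood far from the other 4 of their group in 26 sets of 5 values. Of these, 21 were among the 296 sets of 148 genes followed in carcinoma or control liver. The measure was the gap to the nearest sample over the group's range, above 0.71, which chance passes in about 1 group in 20.

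In carcinoma the far samples were these. Carcinoma 2 was high in Nr0b2 (1.65, next 0.83) and low in Pcna (-2.28, next -0.46). Carcinoma 3 was high in Slc30a2 (3.33, next 0.75), and carcinoma 4 was low in Psmb8, an immunoproteasome subunit (-5.21, next -1.0). Carcinoma 1 was high in Rab3d (1.84), in the median of plasma protein genes (0.81, next 0.18) and in its number of values at the lower limit (33, next 8). Carcinoma 5 was low in Uqcrfs1 (-3.82), and high in Blvra (0.51), Hsp90ab1 (0.96) and the macrophage marker median (0.88, next 0.23).

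Control 4 was far above the other controls in Ppp1r3b (1.23), Eno1 (0.44), Vwf (3.0), Adcy5 (1.19), Pam (2.35), Mgat5 (3.17) and Tnni1 (3.79), and below them in the mast cell marker median (-0.37). Control 5 was low in Pspn (-2.17) and in the plasma protein median (-0.87, next -0.17), and high in Dbp (0.90). Control 2 was high in Aldh3a1 (3.47) and Cox17 (0.42). Control 3 was high in Stat6 (2.36) and low in Rps21 (-0.86).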

How the results depend on the processing

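The 22 alternatives to the normalized values gave 0 features with a limma adjusted p under 0.05 each time, and the smallest adjusted p ran from 0.117 without control 4 to 0.673. Features with an unadjusted p under 0.05 numbered 274 to 319 in the 12 alternatives that keep all 10 carcinoma and control samples. They numbered 210 to 365 when 1 of the 10 samples was left out, within 1.5 times the main count. Leaving out features with a value at the lower limit gave 274 of only 3202 tested. With replicate number as a block there were 274, with 71 features standing apart, although the labels do not say that a number pairs samples. Features with groups apart numbered 63 to 79 with all 10 samples. They numbered 90 to 142 without 1 sample, since 4 values overlap 5 less often than 5 do: 108 without control 1, 138 without control 2, 118 without control 5, 116 without carcinoma 2 and 142 without carcinoma 4.

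Of the 148 genes followed through the alternatives 143 kept their sign under every one. Cyp7a1 (-0.39) was 1.35 as deposited, 1.37 with a common median, and ran from -1.06 to 0.22 with 1 sample left out, positive without control 3 (0.22), control 4 (0.047) or carcinoma 2 (0.13). Ass1 (-0.37) was 0.076 and 0.096 under those scalings, and ran from -1.01 to 0.31 with 1 sample left out, positive without control 1 (0.032), carcinoma 3 (0.26) or carcinoma 4. With 1 sample left out Ttr ran from -0.022 to 0.96 and Tat from -0.059 to 0.84, both lowest without control 5, and Fgb from -0.14 to 1.1, lowest without carcinoma 1. The cause was not tested. Of the 79 list medians 43 moved by less than the spread of the samples under every alternative. The alternatives for cell type markers were chosen after seeing the data.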
